A study of Mus musculus with 2 samples.

Results

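Horizontal cells, the laterally connected inhibitory interneurons of the outer retina, were examined in dissociated mouse retina at postnatal day 7 (P7). A cell was taken as a horizontal cell when its barcode held at least 1 molecule (UMI, a unique molecular identifier that marks 1 captured transcript) of Lhx1, at least 1 UMI of Onecut1 or Onecut2, and none of Slc17a6 or Slc6a9, markers of ganglion cells and glycinergic amacrine cells. Barcodes had to hold at least 1000 UMIs and 500 genes, with at most 15% mitochondrial UMIs. This gave 115 cells out of 24841, of which 52 came from the control library and 63 from the Mettl14-cKO library. Control mice had the genotype Mettl14 fl/fl or fl/wt, and their label names no Cre transgene. The Mettl14-cKO mice carried Mettl14 fl/fl together with Chx10-Egfp/Cre, a transgene that expresses an EGFP and Cre fusion and is known to act in a mosaic of retinal progenitors. All mice therefore carried at least 1 floxed Mettl14 allele. There was 1 library per genotype, with no label for the number of animals or retinas pooled, so no difference below was tested. The intervals are 95% intervals of counting error alone.

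Horizontal cells receive glutamate from photoreceptors and send inhibitory feedback to the photoreceptor terminals and feedforward signals to bipolar cells. They are among the first neurons born in the retina. Onecut1, Onecut2 and Prox1 act in their specification, Lhx1 places them in their layer, and Calb1 encodes the calcium-buffering protein calbindin that is widely used to stain them. Mettl14 encodes the partner of Mettl3 in the writer complex that methylates adenosines of mRNA to N6-methyladenosine (m6A).

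Npy and Pyy, which stood in opposite directions between the libraries, encode related peptides of the neuropeptide Y family. Their promoters are shown here, as the 250 bases before the start of each gene, 5′ to 3′ on the gene's strand (RefSeq, GRCm38.p6), to place the sequences beside the values below. Capitals mark the TATA-like motif ATANAAG, searched on both strands.
Npy, chr6:49822460-49822709, plus strand: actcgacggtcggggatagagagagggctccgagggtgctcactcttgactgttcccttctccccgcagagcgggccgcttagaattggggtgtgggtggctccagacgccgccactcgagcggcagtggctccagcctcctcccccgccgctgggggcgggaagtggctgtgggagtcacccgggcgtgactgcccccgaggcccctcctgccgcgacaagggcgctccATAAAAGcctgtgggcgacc
Pyy, chr11:102107833-102108082, minus strand: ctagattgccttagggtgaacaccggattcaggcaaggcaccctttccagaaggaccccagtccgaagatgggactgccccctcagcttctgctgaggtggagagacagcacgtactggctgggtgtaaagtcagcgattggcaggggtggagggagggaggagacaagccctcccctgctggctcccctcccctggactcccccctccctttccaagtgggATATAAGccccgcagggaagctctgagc
The motif began 20 bases before the start of Npy and 28 bases before that of Pyy, and 11.4% of 26987 RefSeq promoter windows of this length held it. It was picked after both sequences had been read. Neither window held ATCAAT or ATCGAT (both strands, the core letters that ONECUT factors bind) or TAATTA, a palindromic homeodomain motif. Of the 20 leading genes named below and the 3 genes of the rule, 17 had a window, of which 5.88% held ATCAAT or ATCGAT against 7.61% of all windows, and 5.88% held TAATTA against 4.92%.

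The rule admitted some barcodes that lacked the other horizontal markers. Of 16 horizontal cell genes that the rule did not use, the median cell held 13 in the control library and 11 in the Mettl14-cKO library. Fewer than 6 were found in 4 control and 11 Mettl14-cKO barcodes, and Scrublet, a doublet caller, marked 4 of those 11. Each of the 4 control and 10 of the 11 Mettl14-cKO barcodes held exactly 1 UMI of Lhx1, the lowest number the rule allows. Just inside the rule, the 6 control and 11 Mettl14-cKO cells with exactly 1 Lhx1 UMI had 241 and 122 UMIs per 1000000 (CPM) of C1ql1. The 46 and 52 cells with more had 2136 and 1918 CPM. Just outside it, 711 control and 2041 Mettl14-cKO barcodes had Onecut1 or Onecut2 but no Lhx1, with 40.3 and 50.3 CPM of C1ql1, and 28 and 50 of them held 6 or more of the 16 genes. A further 11 and 10 barcodes that met the positive criteria were removed by a UMI of Slc17a6 or Slc6a9, and they held a median of 13 and 12 of the 16 genes. Values below are for all 115 cells, and "with marker support" refers to the 48 control and 52 Mettl14-cKO cells with 6 or more of the 16 genes, a set chosen after the data were seen.

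**Figure D1:**
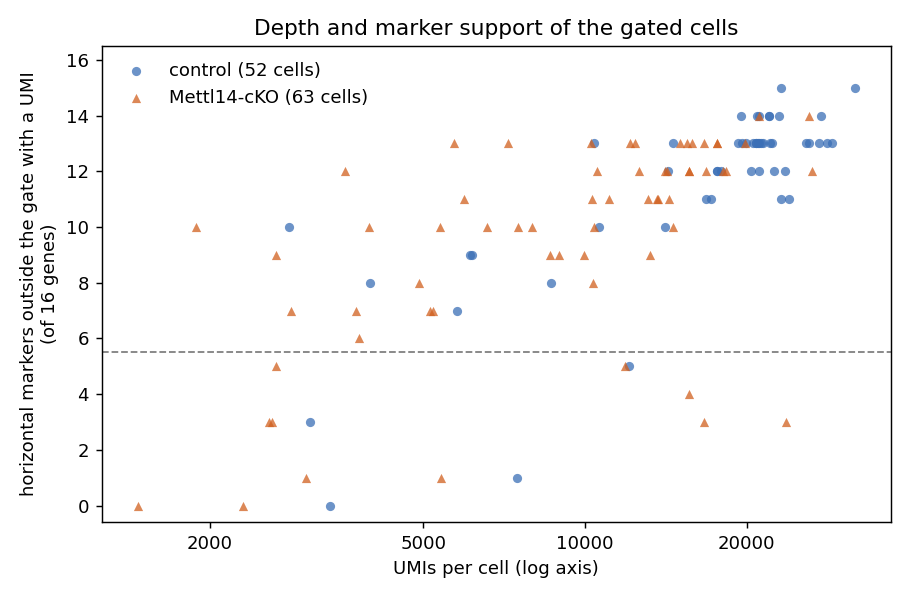
UMIs per cell (log axis) against how many of 16 horizontal genes outside the rule had a UMI, 1 point per cell, control as circles and Mettl14-cKO as triangles. The dashed line separates the 4 control and 11 Mettl14-cKO cells with fewer than 6 of these genes, and 28 control against 4 Mettl14-cKO cells reach 20000 UMIs.

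Horizontal cells made up 0.458% of kept control barcodes (0.342 to 0.600) and 0.467% of kept Mettl14-cKO barcodes (0.359 to 0.598). With marker support the shares were 0.422% (0.312 to 0.560) and 0.386% (0.288 to 0.506). The intervals overlapped widely, so no difference in the share was detectable at this number of cells.

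UMIs per cell differed far more than the share. Horizontal cells held many more UMIs than other barcodes, with a median of 20666 UMIs and 4584.5 genes in the control library, but 10521 UMIs and 3586 genes in the Mettl14-cKO library, a ratio of 0.509 in UMIs. The control cells ran from 2815 to 31750 UMIs and the Mettl14-cKO cells from 1468 to 26432, with 4 and 14 cells under 5000 UMIs. With marker support the ratio of medians was 0.557. All other kept barcodes had medians of 3480 and 3205 UMIs, a ratio of 0.921. The rule asks for UMIs of genes with few UMIs per cell, so it favours deep barcodes. Barcodes with Onecut1 or Onecut2 but no Lhx1 had medians of 4233 and 3925 UMIs. The part of the rule in the depth of the horizontal cells was not tested. Cells with GABAergic amacrine markers (Gad1 and Tfap2b, no Lhx1 or Slc17a6, 497 and 771 cells) had a ratio of 0.845. Cells with ganglion cell markers (Slc17a6 with Pou4f1, Pou4f2 or Rbpms, no Lhx1 or Slc6a9, 126 and 217 cells) had medians of 15248 and 8963, a ratio of 0.588. UMIs per cell reflect both the RNA in a cell and its capture, which cannot be told apart here. The part of this depth gap in the differences below was not tested, and all levels in CPM are relative to the summed UMIs of the horizontal cells of each library.

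Mettl14 itself (ENSMUSG00000028114, chromosome 3, 123368297 to 123386108, minus strand, GRCm38) was sparse in horizontal cells. The control cells held 14 UMIs in 11 cells (14.9 CPM, 8.13 to 24.9) and the Mettl14-cKO cells 6 UMIs in 6 cells (8.75 CPM, 3.21 to 19.0). The log2 ratio of Mettl14-cKO over control was -0.76 (-2.43 to 0.71), an interval that includes no difference. In all other barcodes the level was 27.4 against 14.5 CPM, a log2 ratio of -0.91 (-1.04 to -0.79). Which exons the loxP sites flank is not in the labels, so a 3′ tag of a deleted transcript may still be counted, and the remaining UMIs do not measure how many horizontal cells lost the gene.

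The marker genes outside the rule mostly stood lower in Mettl14-cKO horizontal cells, and calbindin stood lowest. Of the 16, 14 were measured, meaning at least 30 UMIs over both libraries, and 12 of these 14 had a log2 ratio below 0, with a median of -0.31. With marker support 9 of 14 were below 0, with a median of -0.18, but that set was chosen on these same 16 genes, so their values in it are a description and no separate check. The median over all 6307 measured genes was 0.04. Calb1 alone passed 2-fold (1 lower, 0 higher), where 3.84% of all measured genes were 2-fold or more higher and 2.06% were 2-fold or more lower. Cells were chosen on Lhx1, Onecut1 and Onecut2, so the values of those 3 genes only describe the choice.

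Lhx1 (chromosome 11, 84518284 to 84525535), the LIM homeobox gene, stood at 805 CPM in control and 653 in Mettl14-cKO cells, a log2 ratio of -0.30. Per cell it ran from 0.83 to 22.2 UMIs per 10000 in control cells (median 6.30) and from 0.42 to 28.0 in Mettl14-cKO cells (median 7.03). Onecut1 (chromosome 9, 74861921 to 74891781) stood at 463 against 295 CPM, a log2 ratio of -0.65 (-0.90 to -0.41), with a UMI in 45 of 52 and 48 of 63 cells. Onecut2 stood at 518 against 459 CPM, a log2 ratio of -0.17, while in all other barcodes its ratio was 1.34 and in the GABAergic amacrine gate 1.30. Onecut3, the third gene of the family, which the rule did not use, stood at 110 against 65.6 CPM (log2 -0.75, -1.29 to -0.23). The cells of both libraries overlapped broadly for each of these genes.

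Calb1 (ENSMUSG00000028222, chromosome 4, 15881264 to 15908064) was the marker outside the rule that passed 2-fold. Control cells held 1144 UMIs (1215 CPM, 1145 to 1287) and Mettl14-cKO cells 307 (448 CPM, 399 to 501), a log2 ratio of -1.44 (-1.63 to -1.26), or -1.29 with marker support. Control cells ran from 0 to 26.4 UMIs per 10000 with a median of 11.3, and Mettl14-cKO cells from 0 to 29.2 with a median of 2.04. The groups overlapped at both ends, but 54 of 63 Mettl14-cKO cells lay below the lower quartile of control cells, and 5 lay above the control median. With every cell thinned to 1500 UMIs, which left out 1 Mettl14-cKO cell, 71.2% of control and 41.9% of Mettl14-cKO cells still held a Calb1 UMI, against 92.3% and 66.7% unthinned. All other barcodes held one in 2.22% and 1.14% after the same thinning. Calb1 was also lower in the GABAergic amacrine gate, by a log2 ratio of -1.27, and stood at -0.07 in the ganglion gate.

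The other markers spread around a small decrease. Prox1, a homeobox factor, stood at 728 against 411 CPM (log2 -0.82, -1.03 to -0.62), beside -1.20 in all other barcodes. Sept4, a septin, stood at 1577 against 1057 CPM (-0.58, -0.71 to -0.45). Tpm3, a tropomyosin and the most abundant of these genes, stood at 3907 against 2231 CPM (-0.81, -0.90 to -0.72), beside 0.13 in all other barcodes. C1ql1, a secreted C1q-like protein, stood at 2061 against 1681 CPM (-0.29), and Tfap2b, a transcription factor shared with amacrine cells, at 940 against 771 (-0.28). In cells with marker support, which C1ql1 and Tfap2b helped to choose, they stood at -0.15 and -0.13. Nefl and Nefm, the light and medium neurofilament chains, stood at -0.13 and -0.15, and Nefh, the heavy chain, at -0.54 (-0.88 to -0.22). Megf10 and Megf11, which act in the even spacing of these cells, stood at 53.1 against 40.8 CPM and 136 against 153 CPM, both with intervals across 0. Sema4g, a semaphorin, was low at 40.3 against 32.1 CPM and only 2.31 and 1.44 times its level in other barcodes. Gja10, the connexin of horizontal cell gap junctions, had 15 and 10 UMIs.

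**Figure D2:**
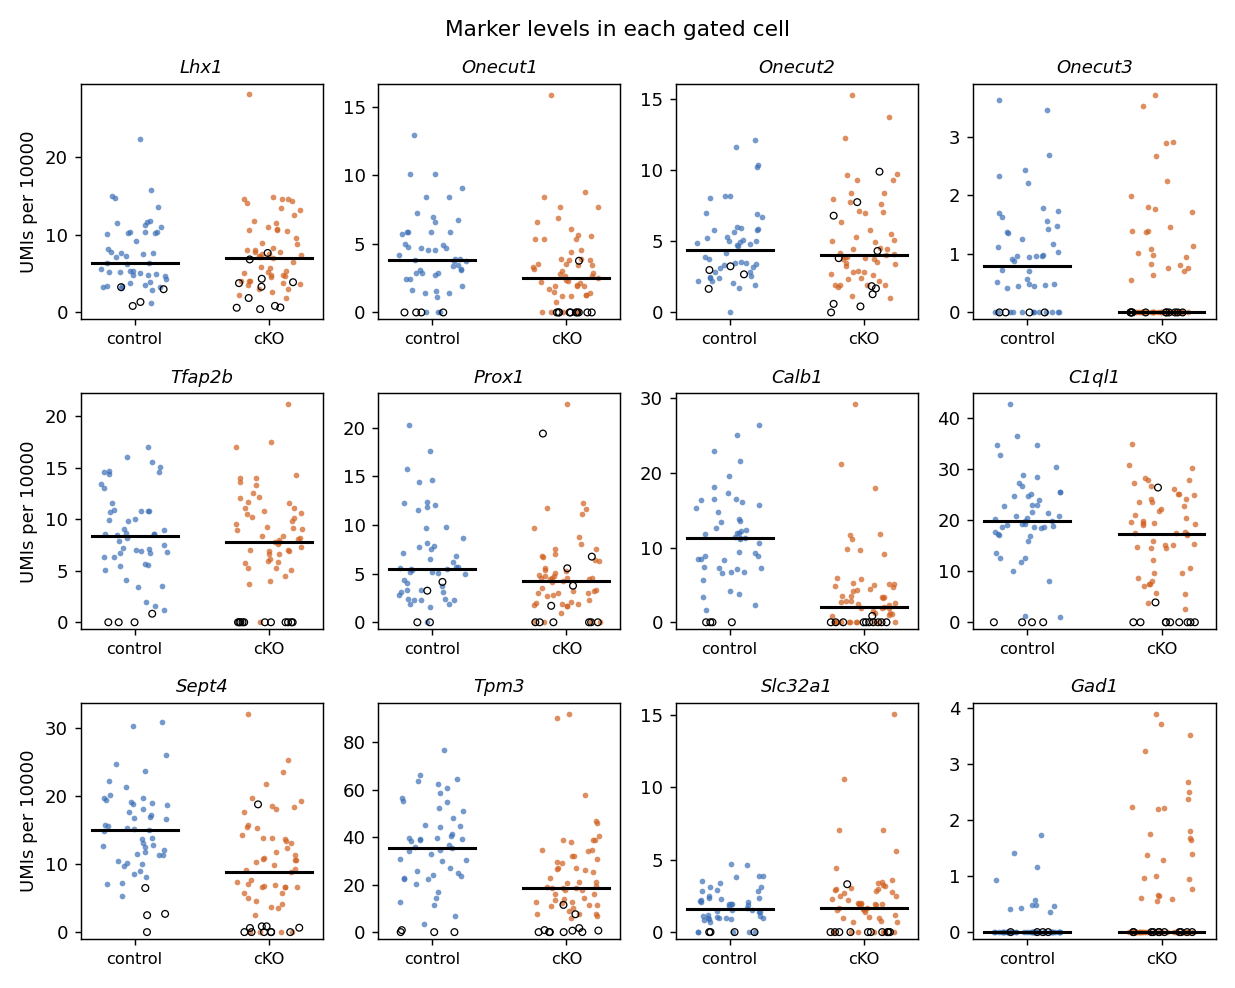
UMIs per 10000 of 12 genes in each gated cell, control in blue and Mettl14-cKO (cKO) in orange, with the median over all cells as a bar and cells with fewer than 6 of 16 other markers as open circles. The median of Calb1 lies at 11.3 in control and 2.04 in Mettl14-cKO cells, and that of Tpm3 at 35.6 and 18.4.

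Genes that set horizontal cells apart from all other barcodes in both libraries were ranked by the lower of the 2 folds. The first 20 were Pyy, Lhx1os, Wfdc10, Marc1, Gm16551, Bsnd, Plekhd1os, Onecut3, Prkg2, Pcsk6, Adra2a, Chst8, Hspb3, Ddo, Angpt2, Tent5a, Syt2, Wnk4, Tnr and Akain1. Folds ran from 327 and 203 for Pyy to 41.0 and 42.3 for Akain1. Lhx1os is annotated on the plus strand of chromosome 11, at 84525660 to 84535831, and Lhx1 on the minus strand, at 84518284 to 84525535. The annotated genes thus lie side by side and do not overlap. Whether the counting used strand is not given in the sources used here. Since cells were selected on correlated genes, these folds describe the cells and support no further statement. Between the libraries, most of these genes stayed within 2-fold. Adra2a, an adrenergic receptor, stood at 205 against 149 CPM, Angpt2, an angiopoietin that acts on vessels, at 168 against 127, and Tnr, tenascin-R of the extracellular matrix, at 419 against 362. Pcsk6, a proprotein convertase, stood at 196 against 106 CPM (-0.88) and Akain1 at 386 against 203 (-0.93). Chst8, a sulfotransferase, stood the other way, at 67.9 against 114 CPM (0.74, 0.25 to 1.24). Pyy and Wfdc10 (138 against 51.0 CPM) passed 2-fold, in opposite directions.

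The related peptide genes Npy and Pyy stood in opposite directions. Npy (ENSMUSG00000029819, chromosome 6, 49822710 to 49829507), which encodes neuropeptide Y, was the most abundant named gene, with 10046 UMIs in control cells (10666 CPM) and 3162 in Mettl14-cKO cells (4610 CPM). The log2 ratio was -1.21 (-1.27 to -1.15), or -1.06 with marker support. Control cells ran from 0 to 266 UMIs per 10000 with a median of 94.0, and Mettl14-cKO cells from 0 to 122 with a median of 32.5. The difference was spread over the cells, since 44 of 63 Mettl14-cKO cells lay below the lower control quartile and 8 above the control median. In the GABAergic amacrine gate Npy had a log2 ratio of -1.08, from 2357 to 1113 CPM, and in all other barcodes -0.80.

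Pyy (ENSMUSG00000017311, chromosome 11, 102106676 to 102107832), which encodes peptide YY, stood at 263 CPM in control cells (248 UMIs) and 2404 in Mettl14-cKO cells (1649 UMIs), a log2 ratio of 3.19 (3.00 to 3.39). A few cells held most of it. The 5 cells with most Pyy held 91.5% of its UMIs in the control library and 78.7% in the Mettl14-cKO library, and medians per 10000 were 0 and 0.50. Control cells reached 31.6 UMIs per 10000, and 8 of 63 Mettl14-cKO cells lay above that, up to 578. At least 1 Pyy UMI was present in 13 of the 52 control cells and in 32 of the 63 from Mettl14-cKO. After thinning to 1500 UMIs these were 15.4% and 33.9% of cells, against 0.020% and 0.534% of all other barcodes, whose median depths are given above. Pyy was also higher in all other barcodes, at 0.80 against 11.8 CPM (43 and 684 UMIs). The log2 ratio there was 3.88 (3.43 to 4.36). Those barcodes include some with 6 or more of the 16 horizontal genes, 28 control and 50 Mettl14-cKO among those with Onecut1 or Onecut2 but no Lhx1. Whether the Pyy there came from horizontal cells that the rule missed was not tested. The GABAergic amacrine gate held 0 Pyy UMIs in control and 6 in Mettl14-cKO, and the ganglion gate likewise 0 and 6. Leaving out the cell with most Pyy in each library, gave a log2 ratio of 3.40, and keeping only cells with marker support gave 3.28.

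With marker support, 3 control and 7 Mettl14-cKO cells held 20 or more Pyy UMIs per 10000, a level set after the data were seen. The 3 control cells had Npy between 77.4 and 266 UMIs per 10000, and the 7 Mettl14-cKO cells between 3.87 and 122 with a median of 30.6. The other 45 Mettl14-cKO cells had a median Npy of 40.9. The Pyy-rich cells of the Mettl14-cKO library were thus found from low to high Npy levels. Calb1 had a median of 2.04 UMIs per 10000 (0 to 5.05) in these 7 cells and of 3.36 (0 to 29.2) in the other 45.

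**Figure D3:**
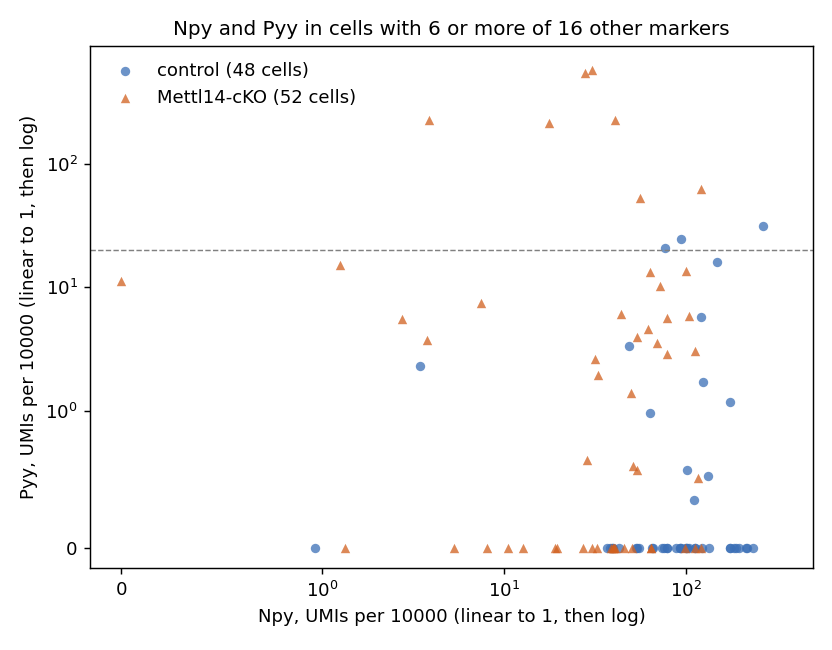
Npy against Pyy in UMIs per 10000, linear up to 1 and logarithmic above, in the 48 control (circles) and 52 Mettl14-cKO (triangles) cells with marker support. The dashed line marks 20 Pyy UMIs per 10000, with 3 control and 7 Mettl14-cKO cells above it, and Npy reaches 266 in control against 122 in Mettl14-cKO cells.

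Over all measured genes, 242 of 6307 (3.84%) were 2-fold or more higher in Mettl14-cKO cells and 130 (2.06%) lower. With marker support these were 162 (2.74%) and 127 (2.15%) of 5916, with 134 and 91 genes shared between both sets. Genes of low count make up many of these, and only 47 and 32 passed among the 2791 genes with at least 100 UMIs.

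The 20 highest ratios were led by Pyy and included Ntm, Opcml, Gad1, Pvalb, Rgs4 and Pik3r1. Ntm and Opcml, adhesion proteins of the IgLON family, stood at 18.0 against 96.2 CPM (log2 2.41, 1.63 to 3.28) and 39.3 against 120 CPM (1.61, 1.03 to 2.21). Ntm was found in 12 and 30 cells and Opcml in 19 and 46. Gad1, a GABA-synthesizing enzyme, stood at 14.9 against 74.4 CPM (2.32, 1.45 to 3.29), with 14 UMIs in 11 control cells and 51 in 26 Mettl14-cKO cells. After thinning, 1.92% and 12.9% of horizontal cells held a Gad1 UMI, beside 1.60% and 0.483% in the ganglion gate. In the GABAergic amacrine gate, which requires Gad1, its ratio was -0.27. Pvalb, the calcium-binding protein parvalbumin, stood at 22.3 against 68.5 CPM (1.62), Rgs4, a regulator of G protein signalling, at 19.1 against 62.7 (1.71), and Pik3r1, a regulatory subunit of PI3-kinase, at 44.6 against 137 (1.62). Each of these 6 genes stood at a log2 ratio of 1.65 or more with marker support.

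Other high ratios moved with the barcodes that lacked horizontal markers. Rp1, a photoreceptor microtubule gene, stood at 1.87, Otx2, a photoreceptor and bipolar transcription factor, at 1.65, and Nrip1 and 2610008E11Rik both at 1.82. With marker support they stood at 0.84, 0.39, 0.83 and 0.75. Enho, Prr7, Chid1, Fabp7, Zfp30, Pelo, Tmem203, Gngt2 and Slc24a5 also stood among the 20, and each remained at 1.20 or more with marker support. Of these, Prr7 (1.26), Chid1 (1.23), Pelo (1.39) and Enho (1.19) were also more than 2-fold higher in all other barcodes. Marker support does not remove all RNA of other cells, and Gngt2 is itself on the cone list. The supported Mettl14-cKO cells with most Fabp7 UMIs (17 and 11) held 34.8 and 35.6 rod marker UMIs per 10000. Scrublet marked the first as a doublet.

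The 20 lowest ratios held 2-fold in every case with marker support. That set is 48 of the 52 control and 52 of the 63 Mettl14-cKO cells the genes were picked from, so it is no separate check. After thinning to 1500 UMIs, 14 of 17 still passed 2-fold. Slc4a5, a sodium bicarbonate cotransporter (ENSMUSG00000068323, chromosome 6, 83219828 to 83304945), stood lowest, at 121 CPM (114 UMIs) against 24.8 (17 UMIs), a log2 ratio of -2.29 (-3.12 to -1.55). A UMI was present in 39 of the 52 control cells but in 14 of the 63 from Mettl14-cKO, and the level stood 39.9-fold above other barcodes in the control library. Gclc, the catalytic subunit of glutathione synthesis, stood at 117 against 29.2 CPM (-2.00), Gstm7, a glutathione transferase, at 90.2 against 36.4 (-1.31) and Mt1, a metallothionein, at 59.5 against 21.9 (-1.44). Pfkfb3, which makes an activator of glycolysis, stood at 76.4 against 21.9 CPM (-1.81) and Aldoc, an aldolase, at 69.0 against 21.9 (-1.66). Cntnap1, a contactin-associated protein, stood at -1.59, Galnt18 at -1.49, Pdgfa, a growth factor for astrocytes, at -1.43, Lima1, an actin-binding protein, at -1.32 and Myo6, a myosin motor, at -1.30. Sncg, gamma-synuclein, was the most abundant after Npy and Calb1, at 1073 against 464 CPM (-1.21, -1.40 to -1.03). Erich5, Tcta, Polr2a, Nlk, Bbx and Wfdc10 completed the list. In all other barcodes Gclc stood at 0.14, Pfkfb3 at 0.00 and Pdgfa at 0.30, whereas Polr2a (-1.07) and Gstm7 (-1.06) were 2-fold lower there as well. The difference between horizontal cells and the rest was not tested for any of these genes.

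**Figure D4:**
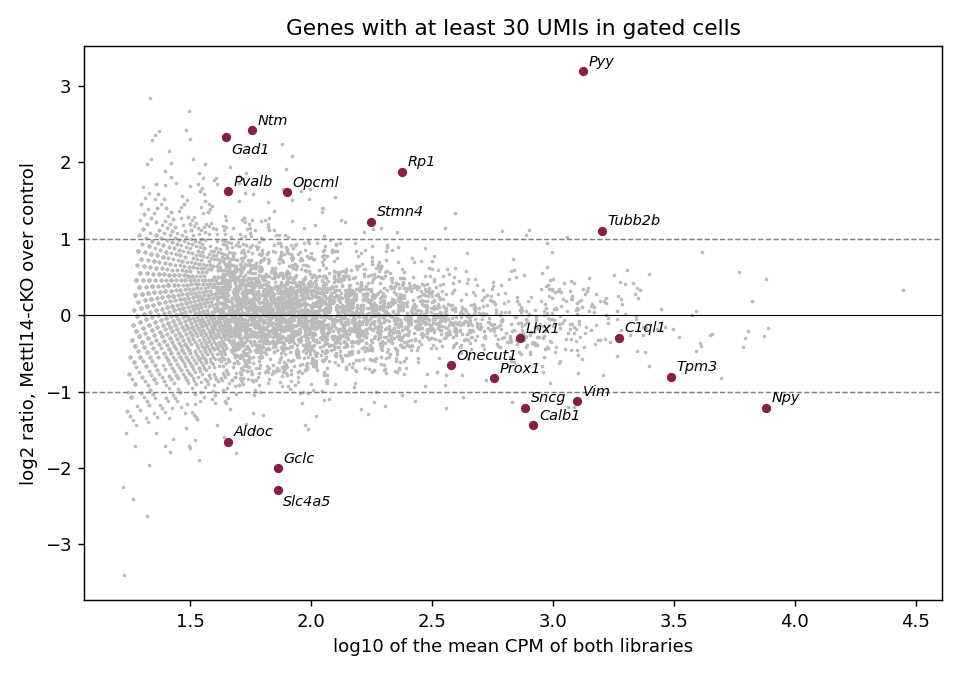
Log2 ratio of Mettl14-cKO over control against the log10 of the mean CPM of both libraries, 1 grey point for each of 6307 genes with at least 30 UMIs in gated cells, with named genes in red. Dashed lines mark 2-fold, Pyy lies at 3.19 and Npy, the most abundant labelled gene, at -1.21.

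Cytoskeletal genes stood on both sides. All 26 listed genes were measured, 4 were 2-fold or more higher and 2 lower, and the median was 0.11, beside 3.84% higher and 2.06% lower over all measured genes. The higher genes were 2 stathmins, which bind tubulin, and 2 tubulins. Stmn4 stood at 106 against 248 CPM (1.22), Tubb2b at 1017 against 2184 (1.10), Tuba1b at 507 against 1045 (1.04) and Stmn1 at 756 against 1528 (1.02). Other members of these families did not pass, with Tubb3 at 0.94, Stmn3 at 0.01 and Stmn2, the most abundant stathmin, at 2486 against 2231 CPM (-0.16). Gap43, a growth cone protein, stood at 0.84 and Dcx, the microtubule protein doublecortin, at -0.08. Vim, the intermediate filament vimentin, stood at 1731 against 795 CPM (-1.12) and Tpm1, a tropomyosin, at 575 against 273 (-1.08). With marker support neither passed 2-fold, with Vim at -0.97 and Tpm1 at -0.95, while 4 genes were again higher, Tubb3 (1.05) among them and Stmn1 (0.94) not. In all other barcodes Tubb2b and Tubb3 were similarly higher (1.22 and 1.03), while Stmn4 stood at 0.30, Vim at -0.13 and Tpm1 at -0.13.

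Energy metabolism genes stood slightly lower as a group. Over all measured genes the median was 0.04, and 2.06% were 2-fold or more lower. Of 23 glycolysis and hypoxia genes 18 were measured, all 18 had a ratio below 0 with a median of -0.38, and 2 were 2-fold or more lower, Aldoc and the mitophagy gene Bnip3 (121 against 59.8 CPM, -1.02). Eno1, an enolase, stood at 682 against 379 CPM (-0.85) and Gapdh at 4954 against 4164 (-0.25). All 20 nuclear oxidative phosphorylation genes were below 0, none by 2-fold, with a median of -0.26 and Atp5e lowest at -0.78. The median over the 13 mitochondrially encoded genes was -0.21. In all other barcodes the medians of the same genes of the first 2 lists were -0.42 and -0.23. Of 83 measured ribosomal protein genes 64 were above 0, with a median of 0.16. All 3 directions were kept with marker support, with medians of -0.33, -0.22 and 0.12.

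Genes of synaptic function showed few large ratios. The counts in this paragraph stand beside 3.84% of all measured genes 2-fold or more higher and 2.06% lower. Of the 27 vesicle and release genes 23 were measured, with 1 higher (Cplx2, a complexin, 1.03), 1 lower (Syn1, synapsin I, 47 against 11 UMIs, -1.64) and a median of 0.03. With marker support Cplx2 stood at 0.26 and Syn1 at -1.45. Snap25, a SNARE protein, stood at 1289 against 946 CPM (-0.45). Slc32a1, the vesicular GABA transporter, stood at 194 against 188 CPM (-0.05, -0.38 to 0.29), in contrast to Gad1. Of 24 glutamate and GABA receptor genes 14 were measured, with a median of 0.20. Grik5, a kainate receptor subunit, was 2-fold or more higher, at 20.2 against 45.2 CPM (1.16, and 1.20 with marker support). Among 27 channel, gap junction and pump genes 15 were measured and 2 were higher, the calcium channel gene Cacna1b (15.9 against 43.7 CPM, 1.46) and Kcnd3 (1.12), which held fewer than 30 UMIs with marker support. In the calcium-binding list, 9 of 11 were measured, with Pvalb higher and Calb1 lower.

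Spacing and adhesion genes had 20 of 28 members measured and 3 higher, Robo1, a Slit receptor (1.39), Plxna2, a semaphorin receptor (1.24), and Cntn1, a contactin (1.24), with a median of 0.41. The share higher over all measured genes was 3.84%, and with marker support Plxna2 stood just under 2-fold, at 0.998, which left 2. Neurotrophin and other trophic signalling genes had 4 of 11 measured and none past 2-fold. Ret, the GDNF family receptor, stood at 86.0 against 130 CPM (0.59, 0.14 to 1.05) and was 14.7 and 25.5 times its level in other barcodes. Of 26 fate transcription factors 18 were measured and 4 were higher, Isl1, Neurod4, Otx2 and Zfhx3. None was called with marker support, where Otx2 stood at 0.39 and the other 3 held fewer than 30 UMIs. There Isl1 stood at -2.19 (21 against 3 UMIs, -4.58 to -0.45) and Zfhx3 at -1.29 (15 against 4 UMIs). Pax6 stood at 262 against 190 CPM (-0.47).

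No measured gene of the m6A pathway passed 2-fold, where 3.84% of all measured genes were 2-fold or more higher and 2.06% lower. Of 9 writer genes 6 were measured, all above 0, with a median of 0.34, and Zc3h13, a zinc-finger subunit of the complex, stood at 88.1 against 156 CPM (0.82, 0.40 to 1.26). Mettl3, the catalytic partner of Mettl14, had 16 and 14 UMIs. Of 12 reader and eraser genes 9 were measured, 6 above 0 and 3 below, the demethylase gene Alkbh5 (-0.29), Ythdc2 (-0.28) and Hnrnpa2b1 (-0.17). Ythdf2, a reader that speeds mRNA decay, stood at 37.2 against 70.0 CPM (0.91), beside 1.10 in all other barcodes. With marker support 4 of the 9 were below 0, and the median moved from 0.30 to 0.04.

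Targets of p53, a stress-response transcription factor, had 9 of 22 members measured, of which 1 was higher and 0 were lower, and a median of -0.13. The gene that passed was Btg2 (18.0 against 61.2 CPM, 1.76), which also belongs to the immediate early list. Phlda3 stood at 34.0 against 20.4 CPM (-0.74, -1.76 to 0.21), while in all other barcodes it stood at 1.71. Cdkn1a, the cell cycle inhibitor p21, was too sparse to be measured here, with 9 and 13 UMIs (9.56 and 19.0 CPM), beside 27.7 and 119 CPM in all other barcodes. A list of 13 genes that were raised in other cell classes of these libraries was chosen from the same data. Only 3 were measured, with a median of 0.87 and none past 2-fold, beside a median of 1.32 in all other barcodes. The rest of the list held too few UMIs for a ratio, among them Abcd4 with 4 and 21. Summed over all 13 genes the level was 142 against 306 CPM, beside 189 against 584 in all other barcodes. Of 24 cell cycle genes only Pcna was measured (-0.85), Mki67 was at 0, and 9 were at 0 in both libraries. None of 16 interferon response genes was measured. Of 19 immediate early genes 5 were measured, with Jun (1.07) and Btg2 higher. Beside the counts in this paragraph, 3.84% of all measured genes were 2-fold or more higher and 2.06% lower.

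**Figure D5:**
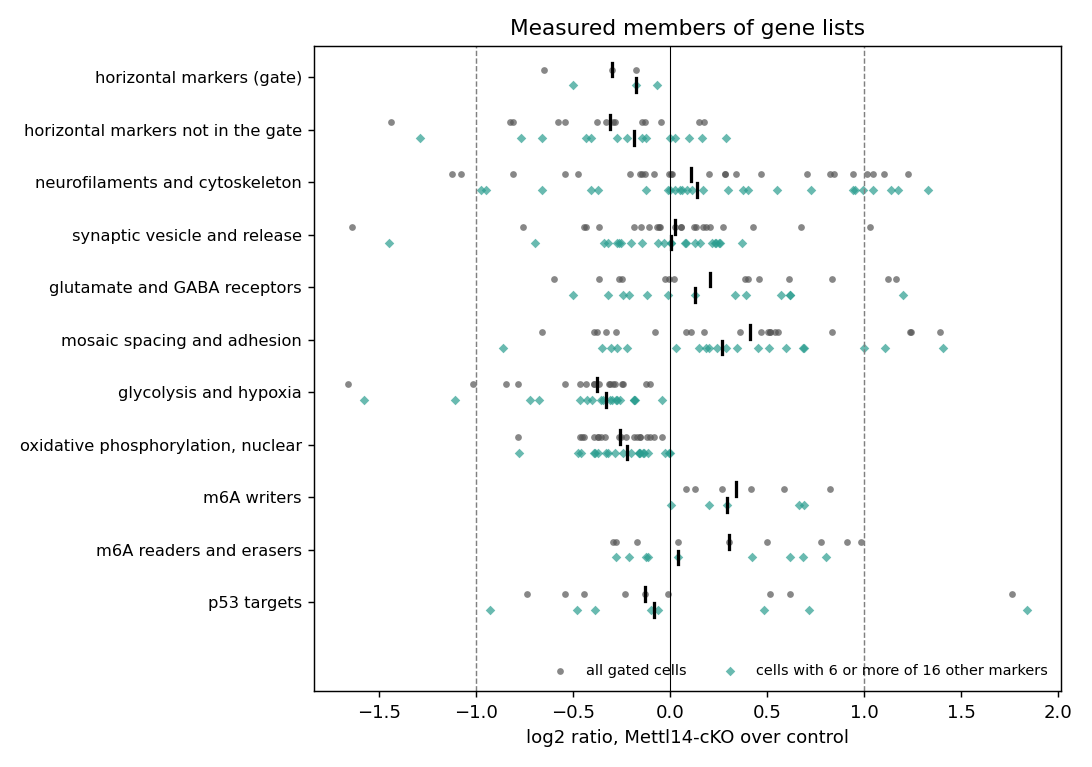
Log2 ratio of Mettl14-cKO over control for each measured member of 11 gene lists, grey for all gated cells and green for cells with marker support, with black bars at the medians and dashed lines at 2-fold. All 18 glycolysis and all 20 oxidative phosphorylation genes lie below 0, and Btg2 is the p53 target at 1.76.

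Markers of other cell types were present at levels that differed between types. The 13 rod genes summed to 1766 CPM in control and 2422 in Mettl14-cKO horizontal cells (1482 and 951 with marker support), beside 20522 and 12148 in all other barcodes. Rcvrn alone of these passed 2-fold (1.41), where 3.84% of all measured genes were 2-fold or more higher. With marker support Rcvrn stood at -0.62. The 8 cone genes summed to 46.7 and 179 CPM (33.8 and 78.6 with support), beside 1350.0 and 1149.7 in all other barcodes. The 12 bipolar genes summed to 329 and 642 (239 and 177), beside 2367 and 1946. Among the 10 measured, 5 were 2-fold or more higher and 1 lower, where 3.84% and 2.06% of all measured genes were. With marker support 5 were measured, 0 higher and 2 lower. Opn1mw was at 0. The 13 amacrine genes summed to 540 and 627 CPM (539 and 602), beside 982 and 1278 in all other barcodes, with Chat, Th, Tfap2c and Ptf1a at 0. The 12 ganglion genes summed to 1337 and 647 CPM (1372 and 732), above the 344 and 320 CPM of all other barcodes and most of it Sncg, with Pou4f3 and Isl2 at 0. The 12 Müller glia genes summed to 2142 and 1126 CPM (2155 and 1222), most of it Vim, beside 2679 and 2905.0 in all other barcodes, and Dkk3 stood at -1.62. The 11 progenitor genes summed to 65.8 and 93.3 CPM (49.1 and 45.1), beside 491 and 602. Microglia, pericyte and endothelial, and astrocyte genes each summed to less than 8 CPM in both libraries. The part of RNA from other cells in the ratios of single genes was not tested.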

How the data were processed

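Single-cell RNA libraries of P7 retina (10x Genomics 3′ kit v3.1, per the labels) were deposited as UMI counts per gene and barcode, which the authors made with Cell Ranger 6.1.1 on mm10, per the submitters' processing notes. The control matrix held 13287 barcodes and 55921787 counts, the Mettl14-cKO matrix 15319 and 59856468, with at least 500 per barcode, and 57 barcodes occurred in both. Filters left 11361 and 13480. Scrublet (scanpy 1.11.5) marked 6.92% and 12.0% as doublets, 2 and 6 of them horizontal cells, and these were kept in the main values.

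UMIs of horizontal cells were summed per library and divided by their total (941898 and 685888) to give CPM. Exact Poisson, conditional and Clopper-Pearson 95% intervals (scipy 1.17.1) cover counting error only. Ratios needed 30 UMIs over both libraries. The intervals were checked only on simulated Poisson counts. These follow the model of the intervals and leave out the spread between cells, so the check tests the calculation alone. Gene positions are GENCODE M21, GRCm38.

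The members and the 30 gene lists were chosen with earlier results of these data known. Named genes were Mettl14, the horizontal markers, the 20 leading genes (found in at least 25% of cells of each library), the 20 highest and 20 lowest ratios (at least 60 UMIs, in at least 20% of cells of 1 library, without mitochondrial, ribosomal protein and rod genes) and up to 4 members per list and direction. Other list members are named with their values where a list is described. Some genes are not described here. Alternatives changed the doublet, barcode and gate filters, the weight of a cell, the scaling, the depth and the minimum count.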

Additional observations from a re-analysis of the deposited data

Results flagged for a closer look

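Isl1, a LIM homeobox gene of ganglion, bipolar and cholinergic amacrine cells, had a log2 ratio of 1.01 in horizontal cells and of -1.11 in all other barcodes, and was flagged because the 2 libraries differ in opposite directions in these sets. The difference between the ratios was not tested, since each genotype has 1 library. Isl1 was found in 6 control and 7 Mettl14-cKO horizontal cells (39 and 57 UMIs), 1 Mettl14-cKO cell held 66.7% of the UMIs there, and the ratio was -2.19 (21 against 3 UMIs, -4.58 to -0.45) in cells with marker support.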

How the results depend on the processing

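No paired analysis was possible because each genotype has 1 library, and for the same reason no library could be left out. Thinning every barcode to 1500 UMIs before the rule gave shares of 0.282% and 0.278%, and asking for Calb1 or Sema4g as well gave 0.431% for the control and 0.341% for the Mettl14-cKO library, a setting that filters on Calb1, which itself stood lower there. The count of genes 2-fold or more higher was 161 when Calb1 or Sema4g was asked for, 40 (of 1086 measured) after thinning, 47 with at least 100 UMIs and 1424 (of 11815) with 1 UMI in each library. The count lower was 207 from the mean of per-cell CPM, 37 after thinning, 32 with at least 100 UMIs and 721 with 1 UMI in each library. Fewer genes were measured in the thinned and 100 UMI settings, and the cause of the others was not tested. Mettl14 stayed lower, between -1.20 and -0.59, in the settings that left it above 3 UMIs, which thinning did not. Isl1 was at -0.64 with at least 2 Onecut UMIs and at -1.11 with Calb1 or Sema4g, and Grm6 at -0.23 and -0.37. With marker support Isl1, Zfhx3, Grm6 and Rcvrn stood at -2.19, -1.29, -2.09 (13 against 2 UMIs, -5.28 to 0.06) and -0.62. After thinning, Cacna1b stood at -0.25 and Rcvrn at -0.013. After thinning, 77 of 152 named genes moved outside their interval and 2 more, past 2-fold in the main values, changed sign; 131 kept their sign, and 10 of 17 highest and 14 of 17 lowest ratios still passed 2-fold. With marker support 25 of 175 moved, 4 more that had passed 2-fold changed sign, 160 kept their sign, and 16 of the 20 highest and all 20 lowest still passed. Scaling by the median of ratios shifted ratios by only 0.000125 on the log2 scale, so it is no separate check. At 30 UMIs a 2-fold ratio lies near the counting error, so single genes of low count are the least firm values here.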
